A study of Homo sapiens with 24 samples.

Results

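The 6 genes described here, HNRNPM, HNRNPUL2, MATR3, ILF2, DDX5 and DDX17, code for proteins found with the splicing regulator RBFOX2 in LASR, the large assembly of splicing regulators, or, for DDX17, for the close relative of one of them. They were taken by gene symbol from the 57773 genes of the table, each symbol had 1 row, and all 6 passed the filter on low values. The 24 libraries come from SKOV3.ip1, a line derived from the human ovarian cancer cell line SKOV-3, and were made by TGIRT-seq, in which a heat-stable reverse transcriptase of a group II intron copies fragmented total RNA after removal of ribosomal RNA. RBFOX2 was depleted with siRNA_1 and siRNA_2, hnRNPC with siRNA_2 and siRNA_3, hnRNPM with siRNA_1 and siRNA_3, and SRSF1 with siRNA_1 and siRNA_3, each at 100 nM for 72 h. Mock cells received Lipofectamine alone and form 4 sets, named as in the labels. Set n4/n5 is the control for RBFOX2, set oct is shared by hnRNPM siRNA_1 and the hnRNPC siRNAs, set jan is shared by the siRNA_3 groups of SRSF1 and hnRNPM, and set nov belongs to SRSF1 siRNA_1. Each of the 12 groups held 2 libraries, all groups are the same cell line, and no group received a non-targeting siRNA.

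RBFOX proteins bind the sequence GCAUG in pre-mRNA and, in LASR, sit together with hnRNP M, hnRNP H, hnRNP C, matrin 3, hnRNP UL2, ILF2 and DDX5. In this assembly partner proteins add their own RNA contacts, so that RBFOX2 can also be found on RNA that lacks its motif. hnRNP M binds GU-rich RNA and regulates exons during epithelial-mesenchymal transition. Matrin 3 is a nuclear matrix protein with RNA and DNA binding domains that represses exons and is mutated in inherited motor neuron disease. ILF2 (NF45) is a nuclear protein with parts in transcription and RNA processing. DDX5 (p68) and DDX17 (p72) are DEAD-box RNA helicases that serve in splicing, transcription and microRNA processing, and hnRNP UL2 is a relative of the scaffold protein hnRNP U with a part in DNA repair.

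Sequences are shown for 3 transcripts, with GCATG or the longest run of T in capitals. Shorter runs of T are left in lower case, and MATR3, whose longest run of T was 11 bases, is not shown. Whether these letters bear on the results below was not tested. The transcripts are the longest coding ones of GENCODE release 29 (GRCh38), written 5′ to 3′ as DNA. The first is 200 bases of exon 15 of HNRNPM, chr19:8485882-8486081 on the + strand, with GCATG, the core of the RBFOX motif, in capitals. It lies in the coding sequence, in the methionine- and arginine-rich repeats of the protein. The other pair are 30 bases around the longest run of T in the 3′ UTR of DDX17, chr22:38485809-38485838, and of DDX5, chr17:64499719-64499748, both on the - strand, with the run in capitals, since hnRNP C binds runs of U.
HNRNPM: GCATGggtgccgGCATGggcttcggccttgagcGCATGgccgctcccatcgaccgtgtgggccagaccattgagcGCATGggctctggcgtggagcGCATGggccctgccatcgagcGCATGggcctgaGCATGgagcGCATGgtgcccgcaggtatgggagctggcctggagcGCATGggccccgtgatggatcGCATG
DDX17: cttttttcTTTTTTTTTTTTTaatttttcc
DDX5: caatttttaggTTTTTTTTgtactagaaaa

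The HNRNPM stretch holds 10 copies of GCATG, and the whole transcript of 2568 bases holds 27, all in the coding sequence. That is 10.5 copies per kilobase, a density reached by 0.0102% of 19684 protein-coding genes, where the median is 0.84 and 85.6% have at least 1 copy. HNRNPM had 0 copies of the longer TGCATG, which 52.4% of genes hold. The other 5 transcripts hold 2 or 3 copies of GCATG each, at 0.38 to 1.17 per kilobase. The longest run of T was 13 bases in DDX17, a length reached by 12.6% of genes, and 8 bases in DDX5, reached by 33.5%. DDX17 had 4 runs of at least 9 bases, MATR3 had 2, ILF2 had 1, and DDX5, HNRNPM and HNRNPUL2 had 0. Letters were read on the strand of the spliced transcript only, so introns were not searched. TGCATG copies are also counted as GCATG. A match describes these letters and is not a binding site. The transcripts of DDX17 and DDX5 shared 8 words of 20 bases and 0 of 30 bases.

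The deposited values were TPM, which are relative to each library's total and corrected for transcript length and keep no record of sequencing depth. Each library was rescaled by the median ratio over genes, and levels below are scaled TPM. A gene was called changed at a Benjamini-Hochberg adjusted p under 0.05 in limma over all 16994 tested genes, with the same sign for both siRNAs. The other targeted genes fell after their own depletion, with log2 fold changes of -1.61 for RBFOX2, -1.77 for HNRNPC and -2.16 for SRSF1. Mean levels went from 17.0 to 4.90 for RBFOX2 and from 147 to 42.1 for HNRNPC. The 1 added before the logarithm understates the fall of RBFOX2 more. Of 9 epithelial and ovarian markers 7 reached 1 TPM, with a summed level of 630 to 958, MUC16 was at most 0.0150 and WT1 at most 0.211. Of 8 immune, endothelial and fibroblast markers 0 did, with summed levels of at most 0.133. Because these are bulk samples, fewer cells with a transcript and less of it per cell cannot be told apart.

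In the 8 mock libraries the 6 genes formed an order in which no neighbouring genes overlapped. DDX5 was highest, at 205 to 242 scaled TPM (mean 228 ± 13.1, SD, n = 8). DDX17 followed at 120.5 to 131 (125 ± 3.96), and ILF2 at 92.4 to 107 (102 ± 5.24). MATR3 lay at 61.5 to 80.7 (72.5 ± 7.02) and HNRNPM at 30.5 to 46.2 (37.6 ± 5.54). HNRNPUL2 was lowest, at 2.93 to 6.46 (4.67 ± 1.29). The mean of DDX5 over all libraries exceeded that of 98.1% of tested genes and the mean of HNRNPUL2 that of 47.1%. The coefficient of variation over mock libraries was 3.17% for DDX17, the steadiest of the 6, and 27.7% for HNRNPUL2, the most variable. The spread between the libraries of a group was smaller for DDX17 (SD 0.07 on the log2 scale) than for 90.9% of tested genes. For HNRNPUL2 that SD was 0.17, and 33.9% of tested genes had a larger one.

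**Figure D1:**
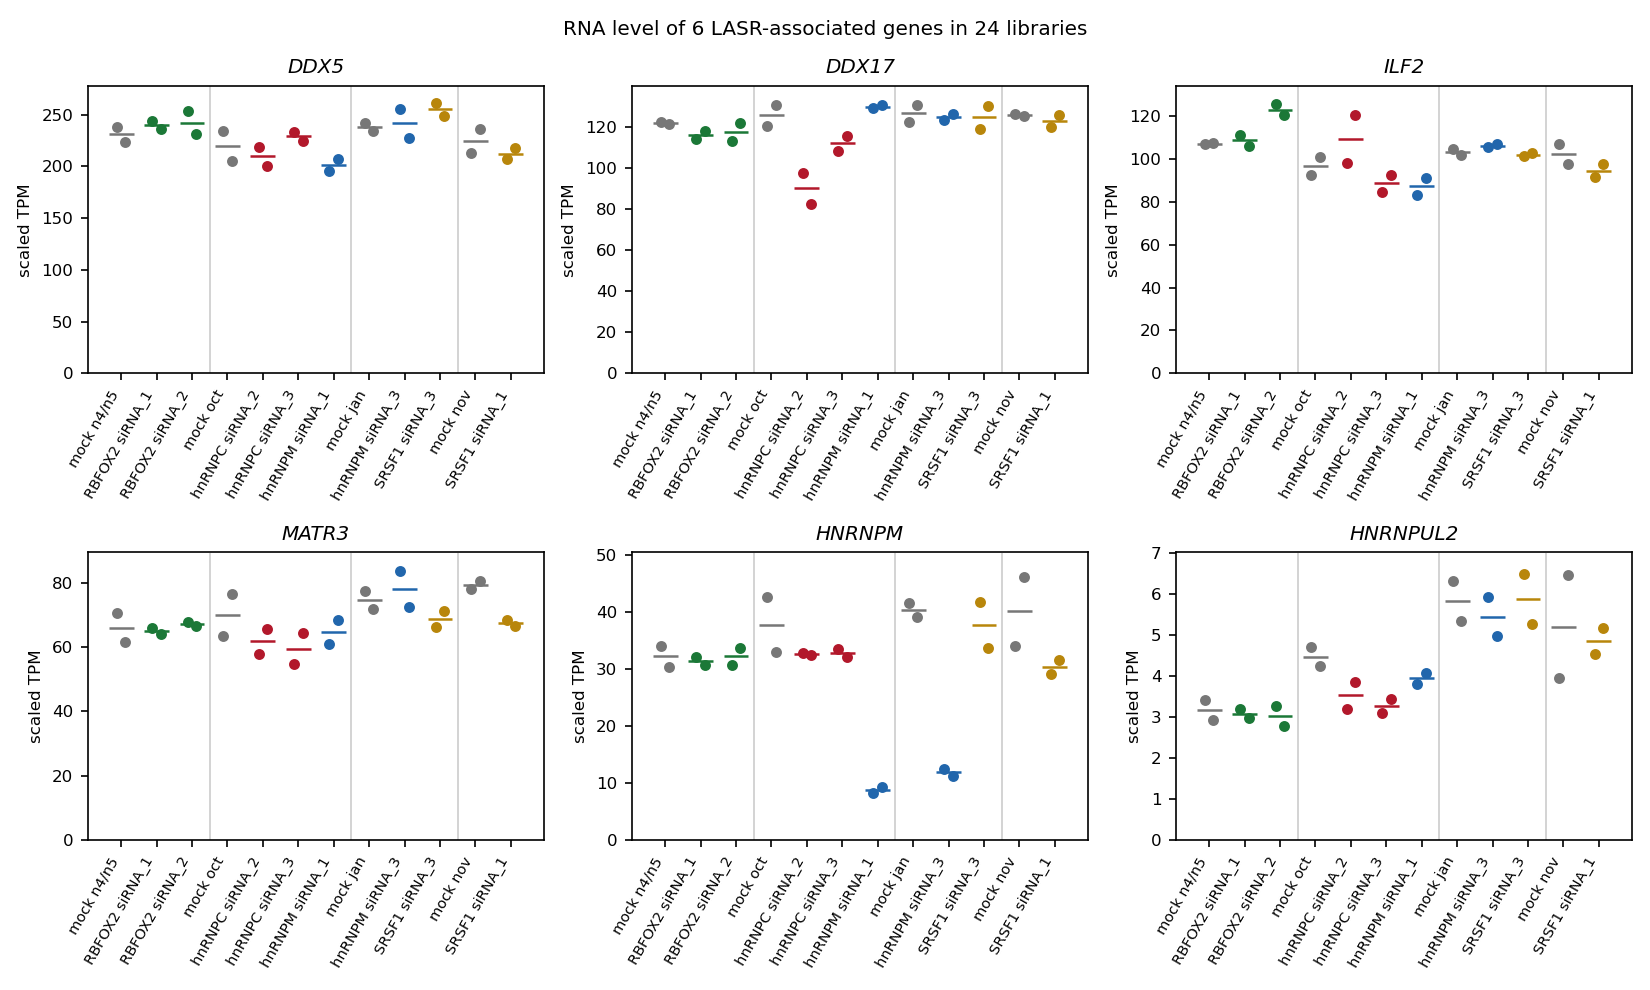
Scaled TPM of each gene in each library, by group; points are libraries, bars are means of 2 libraries, and grey lines separate the mock sets with the siRNAs they control. HNRNPM drops to between 8.20 and 12.5 in the 4 hnRNPM siRNA libraries, and DDX17 has its lowest value, 82.4, with hnRNPC siRNA_2.

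The mock sets themselves differed for HNRNPUL2. Its level was 3.41 and 2.93 scaled TPM in n4/n5, 4.70 and 4.24 in oct, 6.33 and 5.34 in jan, and 3.95 and 6.46 in nov. The n4/n5 libraries were thus the lowest and the jan libraries lay above those of oct, while the nov pair spanned most of that range. By limma's F-test over the 4 sets the adjusted p was 0.0496, in a comparison where 5.53% of tested genes were called. That call was narrow, since it was lost when 6 of the 8 mock libraries were left out in turn (adjusted p from 0.00702 to 0.260). For the other 5 genes the adjusted p lay between 0.335 and 0.961. Each siRNA is therefore set against its own mock set.

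RBFOX2 depletion addressed whether loss of the central protein alters the RNA of its partners, and 0 of the 6 genes were called, with 0 at an unadjusted p under 0.05 in limma. Over all genes 0.112% were called and 2081 of 16994 had an unadjusted p under 0.05. HNRNPM stood at 34.0 and 30.5 in the n4/n5 mock set. It stood at 32.2 and 30.7 with siRNA_1 and at 30.8 and 33.8 with siRNA_2, so the groups overlapped. In no gene of the 6 did the depleted libraries lie apart from mock, as 20.6% of tested genes did. The log2 fold change was -0.02 (SE 0.121, 95% interval -0.27 to 0.24, adjusted p = 0.980). MATR3, at 70.4 and 61.5 in mock, read 64.1 to 67.8 in the 4 depleted libraries. ILF2 gave the largest value, 0.11 on the log2 scale (SE 0.0812, adjusted p = 0.652), from 107 in both mock libraries to 111 and 106 with siRNA_1 and 125 and 120.4 with siRNA_2. The siRNA_2 libraries were above the mock set and those of siRNA_1 straddled it. DDX5 had a log2 fold change of 0.06, DDX17 of -0.06 and HNRNPUL2 of -0.04. The intervals of these 6 values reach from -0.33 to 0.28 on the scale with 1 added before the logarithm. The lower bound is that of HNRNPUL2, whose low level makes this scale understate a change of its RNA. The median over the 6 genes was -0.005, beside 0.004 over all tested genes. With all 8 mock libraries as control, which adds the differences between mock sets, HNRNPUL2 was called lower (-0.45, adjusted p = 0.0258) and ILF2 higher (0.18, adjusted p = 0.0445). In that setting 3929 of 16994 tested genes were called. With the values as deposited 0 of the 6 were called, and the median of all genes moved up by 0.21.

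hnRNPC depletion gave 1 call among the 6 genes, a fall of DDX17, in a comparison where 6.45% of tested genes were called and 4.34% were called lower. DDX17 stood at 120.5 and 130.4 in the oct mock set. It stood at 97.7 and 82.4 with siRNA_2 and at 108 and 116 with siRNA_3. All 4 depleted libraries were below both mock libraries, and those of siRNA_2 were the lowest of all 24. Depleted and mock libraries lay apart, in either direction, for 19.7% of tested genes. The mean was 101 ± 14.4 (SD, n = 4) against 125 ± 7.04 (n = 2). The log2 fold change was -0.32 (SE 0.0757, 95% interval -0.48 to -0.16, adjusted p = 0.0208), or 80.1% of mock on the fitted scale. With siRNA_2 the log2 fold change was -0.48 and with siRNA_3 it was -0.16. Their difference of -0.32 was itself called (SE 0.0875, adjusted p = 0.0301), in a comparison where 11.1% of genes differed between the siRNAs.

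The fall of DDX17 stayed below 0 in all 6 fits that left out 1 library and in all 16 other alternatives, but the call did not always hold. The fits without siRNA_2 replicate 3, without siRNA_3 replicate 1 and without mock oct replicate 3 gave -0.26, -0.30 and -0.26, with adjusted p of 0.0607, 0.0604 and 0.177. siRNA_3 alone gave -0.16 (limma, adjusted p = 0.403). The values as deposited gave -0.49 (adjusted p = 0.114), where the median of all genes was itself lower by 0.13. The call was also lost in a fit on only the groups of this comparison, which had fewer samples to estimate the spread. The difference between the siRNAs was also lost without siRNA_2 replicate 3 (-0.19, adjusted p = 0.334), without siRNA_3 replicate 1 (adjusted p = 0.0598) and without siRNA_3 replicate 3 (adjusted p = 0.172).

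**Figure D2:**
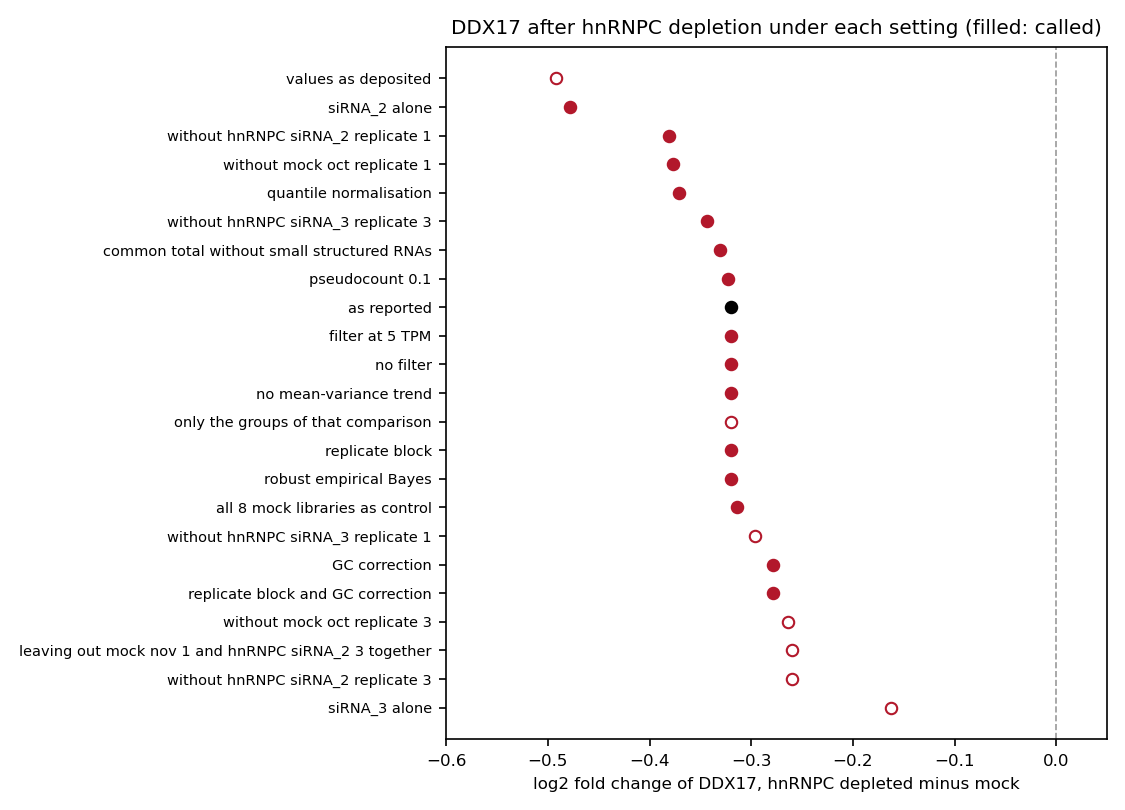
Log2 fold change of DDX17 after hnRNPC depletion (x axis) under each processing alternative (rows); filled points passed the test, and the value as reported is black. The values run from -0.49 to -0.16, all below 0, and 12 of 16 alternatives and 3 of 6 fits without 1 library passed.

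DDX5, the close relative of DDX17, was not called. It stood at 234 and 205 in the oct mock set, 219 and 200.5 with siRNA_2 and 233 and 225 with siRNA_3, which overlap (log2 fold change -0.003, SE 0.0851, 95% interval -0.18 to 0.18, adjusted p = 0.992). The ratio of DDX17 to DDX5 within a library does not depend on the scaling. There were 51.4 and 63.5 units of DDX17 per 100 of DDX5 in the oct mock libraries. With hnRNPC siRNA_2 there were 44.6 and 41.1, the lowest of all 24 libraries, and with siRNA_3 there were 46.4 and 51.4. The ratio of siRNA_3 replicate 3 met the lower mock library. Low ratios also occurred elsewhere, at 44.7 in RBFOX2 siRNA_2 replicate 4 and 45.5 in SRSF1 siRNA_3 replicate 1.

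**Figure D3:**
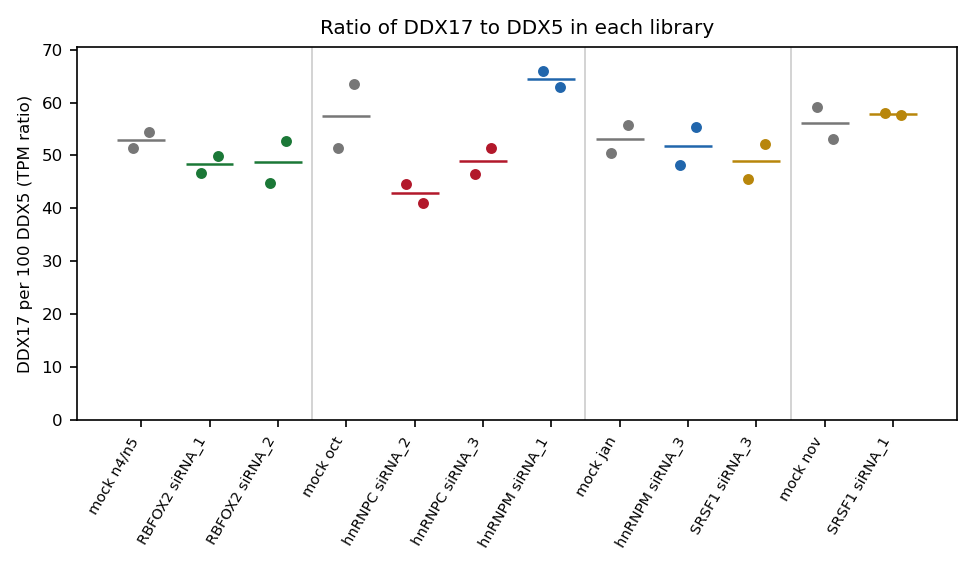
DDX17 TPM per 100 TPM of DDX5 in each library (y axis), by group; points are libraries and bars are means of 2. The hnRNPC siRNA_2 libraries are lowest at 44.6 and 41.1. The hnRNPM siRNA_1 libraries, with the same mock set, stand at 65.9 and 62.9, with DDX5 at 196 and 207 scaled TPM. Those of hnRNPM siRNA_3, with mock set jan, stand at 48.1 and 55.5.

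The other 4 genes were not called after hnRNPC depletion. HNRNPUL2 stood at 4.70 and 4.24 in the oct mock set, 3.21 and 3.85 with siRNA_2 and 3.11 and 3.45 with siRNA_3. The groups did not overlap, which was so for 19.7% of tested genes, and the log2 fold change was -0.32 (SE 0.136, 95% interval -0.61 to -0.03, adjusted p = 0.197). At its low level this scale, with 1 added before the logarithm, understates the fold. HNRNPUL2 was called in 2 of 16 alternatives, both with the replicate number of the labels as a block (limma, adjusted p down to 0.0267). Over the 16 alternatives 58 to 3527 of 16994 tested genes were called. MATR3 had mock values of 63.4 and 76.5 and read 54.6 to 65.7 in the depleted libraries (log2 fold change -0.20, SE 0.0966, adjusted p = 0.254). With all 8 mock libraries as control MATR3 was called (-0.25, adjusted p = 0.0268), as were 3527 of 16994 tested genes. HNRNPM read 42.6 and 33.0 in mock and a narrow 32.2 to 33.6 after depletion (-0.19, SE 0.121, adjusted p = 0.411). ILF2 differed more between siRNAs than from mock. It read 92.4 and 101 in mock, 98.0 and 120.1 with siRNA_2, and 84.6 and 92.2 with siRNA_3 (difference between siRNAs 0.29, SE 0.0938, adjusted p = 0.0581). The median over the 6 genes was -0.19 against -0.01 over all genes, and 2 of the 6 had an unadjusted p under 0.05 against 3551 of 16994.

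hnRNPM depletion lowered its own target HNRNPM and gave 0 calls among the other 5 genes, in a comparison where 1.04% of tested genes were called and 0.677% were called lower. HNRNPM stood at 8.20 and 9.39 with siRNA_1 against 42.6 and 33.0 in the oct mock set. With siRNA_3 it stood at 12.5 and 11.3 against 41.6 and 39.2 in the jan mock set. The depleted and mock libraries did not overlap, which was so for 4.35% of tested genes, and the log2 fold change was -1.83 (SE 0.0989, 95% interval -2.04 to -1.62, adjusted p = 7.93e-08), or 28.1% of mock on the fitted scale. The siRNAs gave -1.98 and -1.68, a difference that was not called (-0.29, SE 0.198, adjusted p = 0.995). Among the partners, DDX17 read 129 and 130.4 with siRNA_1 and 123 and 126 with siRNA_3, within the 120.5 to 131 of the mock libraries (log2 fold change 0.01, SE 0.0618, 95% interval -0.12 to 0.15, adjusted p = 0.968). MATR3 had a log2 fold change of -0.02, ILF2 of -0.05, DDX5 of -0.05 and HNRNPUL2 of -0.12 (adjusted p between 0.804 and 0.960). The 95% intervals of these 5 values reach from -0.35 to 0.15. The median of the 6 genes, target included, was -0.05, beside -0.003 over all genes.

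SRSF1, an SR protein outside LASR, served as a further depletion, and 0 of the 6 genes were called, while 9.37% of tested genes were. At an unadjusted p under 0.05 there were 2 of the 6, against 3952 of 16994. HNRNPM read 29.1 and 31.5 with siRNA_1 against 34.1 and 46.2 in the nov mock set, and 41.7 and 33.7 with siRNA_3 against 41.6 and 39.2 in the jan set. The log2 fold change was -0.24 (SE 0.0989, 95% interval -0.45 to -0.03, adjusted p = 0.150), and only the siRNA_1 libraries lay below their own mock set. Without mock nov replicate 1 it was -0.35 with an adjusted p of 0.0404. MATR3 read 68.3 and 66.7 with siRNA_1 and 66.3 and 71.3 with siRNA_3, all below the 71.9 to 80.7 of the mock libraries. Groups that do not overlap made up 13.7% of tested genes in this comparison, and the log2 fold change of MATR3 was -0.17 (SE 0.0788, 95% interval -0.34 to -0.005, adjusted p = 0.201). With a correction for GC content it was -0.16 and called (adjusted p = 0.0307). MATR3 was called in 3 of 16 alternatives, over which 249 to 3599 of 16994 tested genes were called. ILF2, DDX5, DDX17 and HNRNPUL2 had log2 fold changes between -0.07 and 0.01, and the median of the 6 was -0.05 against -0.002 over all genes.

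**Figure D4:**
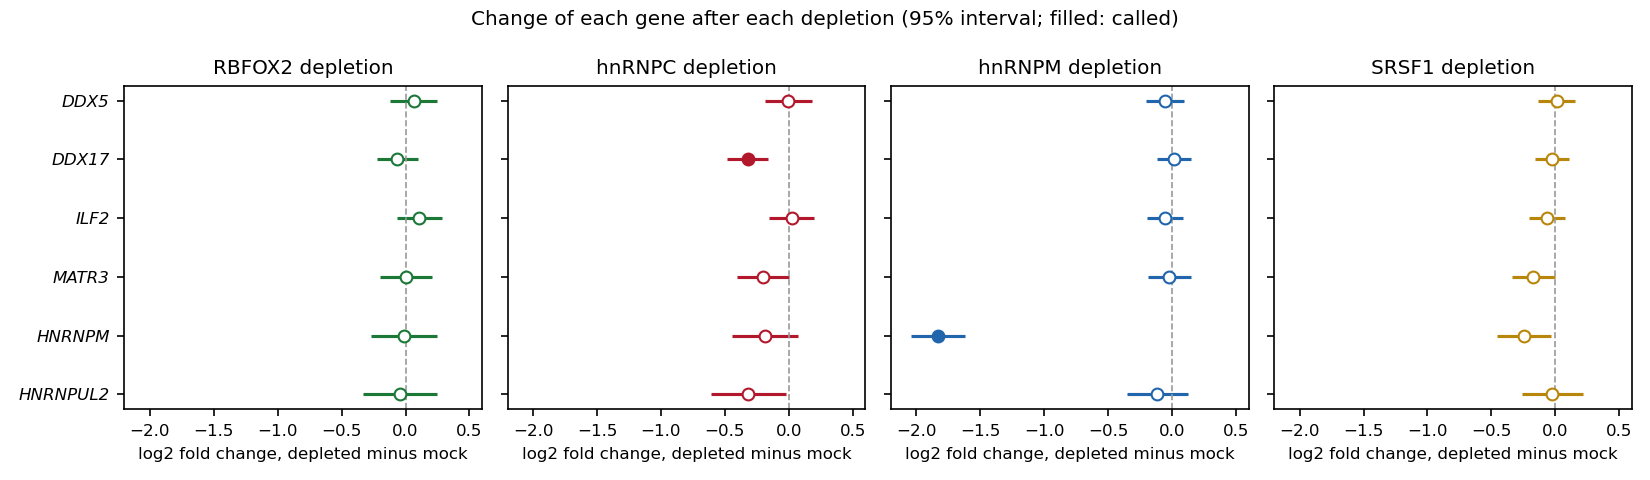
Log2 fold change of each gene (rows) after each depletion (panels), mean of both siRNAs against their mock sets; lines are 95% intervals and filled points were called. HNRNPM after hnRNPM depletion, at -1.83, and DDX17 after hnRNPC depletion, at -0.32, are the called values.

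Between the siRNAs of a protein, 0 of the 6 genes differed for RBFOX2, hnRNPM and SRSF1, where 1.51%, 0.0412% and 0.00588% of tested genes did.

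Over the 24 tests of 6 genes in 4 depletions, 2 were called, of which 1 was the siRNA target. Of all tested genes 0.112%, 6.45%, 1.04% and 9.37% were called after RBFOX2, hnRNPC, hnRNPM and SRSF1 depletion. The 22 tests that were not called had log2 fold changes of -0.32 to 0.11, and their 95% intervals spanned -0.61 to 0.28 on the log2(scaled TPM + 1) scale, which for HNRNPUL2 understates the change of its RNA. hnRNPM depletion shares mock set oct with hnRNPC and jan with SRSF1 depletion, while n4/n5 serves RBFOX2 alone. Differences between depletions were tested in the same model and were chosen after the values of the 6 genes were seen. The effect on DDX17 was lower by 0.33 after hnRNPC than after hnRNPM depletion (-0.33, SE 0.0757, adjusted p = 0.0138), where 7.76% of tested genes differed. This difference was called in all 12 fits without 1 library (-0.40 to -0.27) and not with the values as deposited (-0.44, adjusted p = 0.196). Against SRSF1 depletion it was -0.29 (SE 0.0978, adjusted p = 0.0971), and RBFOX2 minus hnRNPC depletion gave 0.26 (SE 0.107, adjusted p = 0.278), neither of them called, where 6.17% and 1.55% of genes were. HNRNPM was called in the 3 differences that involve its own depletion, at 1.81 for RBFOX2 minus hnRNPM, 1.64 for hnRNPC minus hnRNPM and -1.59 for hnRNPM minus SRSF1. In these comparisons 0.200%, 7.76% and 7.79% of tested genes were called. In RBFOX2 minus SRSF1, where 2.19% were, 0 of the 6 genes were called. For HNRNPUL2, MATR3, ILF2 and DDX5 the differences between depletions lay between -0.29 and 0.27, with adjusted p of 0.315 or more.

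HNRNPH1, a G-run binding splicing regulator and another LASR subunit, fell after SRSF1 depletion, where 9.37% of all tested genes were called, from 195 ± 9.55 (n = 4) to 137 ± 14.7 (n = 4), a log2 fold change of -0.51 (SE 0.0907, adjusted p = 0.00229).

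Of 19 paralogues and direct partners of the 6 genes, 17 were tested. RBFOX1 and RBFOX3, the tissue-specific paralogues of RBFOX2, stayed at no more than 0.00568 and 0.189 scaled TPM and were not. STRBP, which codes for a spermatid RNA-binding protein, fell after hnRNPC depletion from 23.1 ± 2.52 (n = 2) to 18.5 ± 1.68 (n = 4), a log2 fold change of -0.31 (SE 0.0813, adjusted p = 0.0358). MYEF2, the paralogue of HNRNPM, fell after SRSF1 depletion from 2.95 ± 0.412 (n = 4) to 2.02 ± 0.163 (n = 4), a log2 fold change of -0.38 (SE 0.0927, adjusted p = 0.0160). At this low level the 1 added before the logarithm understates the fold. After depletion of hnRNPM itself MYEF2 was not called (0.06, SE 0.0927, adjusted p = 0.895). The remaining members, among them PTBP1, SFPQ, NONO, DROSHA, DGCR8, DHX9 and HNRNPU, gave 0 calls in any depletion. Thus 1 of the 17 was called after hnRNPC and 1 after SRSF1 depletion, where 6.45% and 9.37% of all tested genes were, and 0 after RBFOX2 and hnRNPM depletion, where 0.112% and 1.04% were. At an unadjusted p under 0.05 in limma there were 2, 4, 0 and 3 of the 17 after depletion of RBFOX2, hnRNPC, hnRNPM and SRSF1, against 2081, 3551, 1834 and 3952 of all 16994. The median of the list was 0.06, -0.06, -0.005 and -0.07 in the same order, beside 0.004, -0.01, -0.003 and -0.002 over all genes.

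Reads of near-identical copies could be split from the genes themselves, so their rows were looked up. HNRNPMP1 and HNRNPMP2 stayed at no more than 0.150 and 0.0246 scaled TPM, beside 8.20 or more for HNRNPM. ILF2P1 and ILF2P2 stayed at no more than 0.222 and 0.0306, beside 83.2 or more for ILF2. The joined gene HNRNPUL2-BSCL2 read 0.0947 to 0.501, beside 2.77 or more for HNRNPUL2, and reads that both could claim cannot be told apart here. BSCL2 was not called in any depletion, nor were CEP95 and POLG2, neighbours of DDX5, or SNORA74A, a small nucleolar RNA near MATR3.

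For each of the 6 genes, tested genes whose levels ran most alike were found by Pearson's r of log2 values over the 24 libraries. The search covered 7829 genes with a mean of at least 5 scaled TPM, and left out genes with clone-type names. The r values are descriptions, and libraries of a group share their treatment and mock set. HNRNPM ran most like HSF2 (r = 0.93), MTMR3 (0.91) and EIF4G3 (0.91), over libraries that include its own depletion. HNRNPUL2 ran most like RBBP6 (0.95), NIPBL (0.94) and USP48 (0.94). MATR3 ran most like AIMP1 (0.95), KPNB1 (0.94) and CEP170 (0.93). DDX17 ran most like SEL1L3, TACC1 and MORC4, each at 0.88. ILF2 ran most like RANGAP1 (0.86), PES1 (0.86) and RNASEH2A (0.85), and DDX5 had the weakest likeness, at 0.80 for ZMAT2, 0.79 for KRI1 and 0.78 for TBCAP1. HNRNPUL2, with a mean of 4.31 scaled TPM, was below the cut and could not be listed for another gene. None of the remaining genes of the 6 was among the 3 most alike of another.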

How the data were processed

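The deposited table gives TPM for 57773 genes. The submitters' processing notes name hg19, the mappers Bowtie2 2.1.0.0 and TopHat2 2.0.9, SAMtools 0.1.19.0, and for read quality Trimmomatic 0.38 and FastQC 0.10.1. The program, annotation and strand setting behind the TPM, and the depth, are not given in the sources used here. Of 276 pairs of libraries 0 held identical values.

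TPM were divided by median-ratio factors (0.664 to 1.41) over 22727 genes above 0 in all libraries, because structured RNAs took 62.5% to 78.4% of the TPM, and log2(scaled TPM + 1) was used. Genes that reached 1 TPM in 2 or more libraries (16994) entered limma 3.58.1 in R 4.3.3, with 12 groups and empirical Bayes moderation with a trend (12 residual and 3.04 prior degrees of freedom). Each contrast was the mean over both siRNAs of siRNA minus its own mock set, as the mock samples' siRNA labels give it. The series describes the libraries of a group as biological replicates. The p-values rest on the spread between libraries of a group, estimated over all 12 groups together and not from the compared groups alone. The steps were tested on simulated data.

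The genes and lists, including the other LASR subunits, paralogues, copies and markers, were chosen with earlier results of these data known. Called genes of the lists were named in full and the 3 most alike genes were named by rank. PECAM1 and SNHG4 were not analysed here, and some values of the other LASR subunits are not reported here. Transcript sequences came from GENCODE release 29 by gene identifier, a build other than that of the table. Alternatives were other scalings, pseudocounts and filters, replicate number as a block, GC content (known for 16260 tested genes), the moderation, the mock libraries used, single siRNAs and single libraries left out.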

Additional observations from a re-analysis of the deposited data

Results flagged for a closer look

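HNRNPM and DDX17 are listed because their effects differed between depletions by a direct test in the model over all genes. The effect on HNRNPM differed by 1.81 on the log2 scale for RBFOX2 minus hnRNPM depletion, by 1.64 for hnRNPC minus hnRNPM, and by -1.59 for hnRNPM minus SRSF1, which follows from its being the target of the hnRNPM siRNAs. The effect on DDX17 differed by -0.33 for hnRNPC minus hnRNPM depletion (limma, adjusted p = 0.0138). Within hnRNPC depletion, the effect of siRNA_2 on DDX17 differed from that of siRNA_3 by -0.32 (adjusted p = 0.0301). hnRNPC siRNA_2 replicate 3 had the lowest DDX17 level of all libraries (82.4 scaled TPM), and without it these values were -0.27 and -0.19. It was not the only such library. The difference between the siRNAs was no longer called without it, nor without siRNA_3 replicate 1 or siRNA_3 replicate 3.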

How the results depend on the processing

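With 2 libraries a group, counts over all genes moved widely, while the calls of the 6 genes changed in the places named. Under the values as deposited, limma called 4 genes after RBFOX2 depletion, 287 after hnRNPC, 42 after hnRNPM and 249 after SRSF1 (19, 1096, 176 and 1593 as reported). The share of these calls that were higher was 75% for RBFOX2, 22.3% for hnRNPC and 35.3% for SRSF1, against 21.1%, 32.8% and 46.5%. In that setting 22, 541 and 0 genes differed between the siRNAs of RBFOX2, hnRNPC and hnRNPM, 9756 differed between mock sets, and 0 of the 6 genes were called after hnRNPC depletion. Values near 0 changed sign there: after RBFOX2 depletion HNRNPM was 0.25, HNRNPUL2 0.16 and DDX17 0.20, after hnRNPC ILF2 was -0.15, and after hnRNPM DDX17 was -0.054. Under quantile normalisation the sign changed for DDX17 after RBFOX2 (0.019), ILF2 after hnRNPC (-0.047), and ILF2 (0.0083) and DDX17 (0.045) after SRSF1.

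A common total gave 6 genes after RBFOX2 depletion, no filter 52 and a filter at 5 TPM 46. Without a filter 45 and 20 genes differed between the siRNAs of hnRNPM and SRSF1 and 574 between mock sets, and a pseudocount of 0.1 left 0 for SRSF1. The HNRNPUL2 difference between mock sets had an adjusted p of 0.0581 under quantile normalisation, 0.123 with no filter and 0.0578 with no trend.

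The replicate numbers are shared in the labels without saying what they mark, and same-numbered libraries of a mock set deviated together with correlations of 0.06 to 0.43. With them as a replicate block 363, 2267, 355 and 2805 genes were called in the order RBFOX2, hnRNPC, hnRNPM, SRSF1, with 930, 3273, 23 and 6 between siRNAs and 3967 between mock sets. Of the 6 genes 2 were called after hnRNPC (HNRNPUL2 added, adjusted p = 0.0298) and 1 after SRSF1 (MATR3, adjusted p = 0.0457). With the block and a GC correction these were 484, 2735, 523 and 3599 genes, 1443, 4061, 66 and 25 between siRNAs, 3532 between mock sets, and 3 and 2 of the 6. The 3 were DDX17, HNRNPUL2 (adjusted p = 0.0267) and MATR3 (-0.13, adjusted p = 0.0479) after hnRNPC, and the 2 were HNRNPM (adjusted p = 0.0404) and MATR3 (adjusted p = 0.00821) after SRSF1. The GC correction alone gave 38 genes after RBFOX2, 495 and 16 between the siRNAs of RBFOX2 and hnRNPM, and 1 of the 6 after SRSF1, MATR3. Both GC corrections gave DDX5 0.046 after hnRNPC and MATR3 0.032 after hnRNPM.

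With all 8 mock libraries as control 3929 genes were called after RBFOX2 and 3527 after hnRNPC, with 2 of the 6 in each, HNRNPUL2 and ILF2 for RBFOX2 and DDX17 and MATR3 (adjusted p = 0.0268) for hnRNPC. The sign changed for MATR3 after RBFOX2 (-0.13), ILF2 after hnRNPC (-0.060), and HNRNPUL2 after hnRNPM (0.024) and SRSF1 (0.19). Fits on only the groups compared called 1, 58 and 37 genes for RBFOX2, hnRNPC and hnRNPM, and 0 of the 6 for hnRNPC (DDX17 adjusted p = 0.320), with fewer samples to estimate the spread. Single siRNAs called 83 and 139 genes for RBFOX2, 2253 and 462 for hnRNPC, 115 and 48 for hnRNPM, and 501 and 552 for SRSF1, with 0 of the 6 for hnRNPC siRNA_3. They changed the sign of MATR3 with RBFOX2 siRNA_1 (-0.019) and HNRNPM with RBFOX2 siRNA_2 (0.0031). They did so for ILF2 (-0.12) and DDX5 (0.061) with hnRNPC siRNA_3, and for MATR3 (0.063), ILF2 (0.040), DDX5 (0.018) and DDX17 (-0.020) with hnRNPM siRNA_3. They also did so for DDX5 with SRSF1 siRNA_1 (-0.079) and HNRNPUL2 with SRSF1 siRNA_3 (0.0087). Without both mock nov replicate 1 and hnRNPC siRNA_2 replicate 3 there were 31 calls for RBFOX2, 706 for hnRNPC and 524 between the hnRNPC siRNAs. DDX17 was then -0.26 (adjusted p = 0.0624), so 0 of the 6 were called for hnRNPC, and 1, HNRNPM, for SRSF1. ILF2 was -0.051 and DDX5 0.029 for hnRNPC, and DDX5 was -0.027 for SRSF1.

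Leaving out 1 library at a time gave 1 to 17 calls for RBFOX2, 369 to 1200 for hnRNPC, 80 to 138 for hnRNPM and 919 to 1238 for SRSF1. Between siRNAs these fits gave 29 to 228, 518 to 2210, 0 to 8 and 0 to 2, and between mock sets 181 to 1245. Of the 6 genes, 0 to 1 were called for hnRNPC and 0 to 1 for SRSF1 in these fits. Signs changed after RBFOX2 depletion for HNRNPM (-0.092 to 0.061), HNRNPUL2 (-0.13 to 0.043) and MATR3 (-0.092 to 0.10), and after hnRNPC for ILF2 (-0.051 to 0.095) and DDX5 (-0.097 to 0.092). They changed after hnRNPM for MATR3 (-0.089 to 0.045) and DDX17 (-0.014 to 0.043), and after SRSF1 for HNRNPUL2 (-0.17 to 0.12), DDX5 (-0.027 to 0.046) and DDX17 (-0.060 to 0.0043). The causes were not tested. The difference between hnRNPC and hnRNPM depletion for DDX17 and its alternatives were chosen after the data were seen. Depth is unknown, and HNRNPUL2, at a few TPM, is the least precise of the 6.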
